A study of Mus musculus with 6 samples.

Results

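The nuclear genes for respiratory complexes II, III and IV, for cytochrome c and for the ATP synthase (complex V) were examined in the hearts of Mc4r knockout (Mc4r KO) and wild-type (WT) mice. The members were chosen by name: every protein-coding row whose symbol was Sdha, Sdhb, Sdhc or Sdhd, began with Sdhaf, Uqcr, Cox4, Cox5, Cox6, Cox7, Cox8 or Atp5, or was Cyc1 or Cycs. This gave 54 of the 54532 genes in the deposited table, with 8 for complex II, 9 for complex III, 1 for cytochrome c, 18 for complex IV and 18 for complex V. The symbols were 53, because Atp5o stood on 2 rows. Of the 54 members, 52 passed the filter of a mean FPKM (fragments scaled to the length of the gene and by a factor of the library) of at least 0.1. Cox8c and the second Atp5o row were listed at 0 in every library and were not tested. The names also bring in genes that are not subunits: the Sdhaf genes make assembly factors of complex II, Cox7a2l makes a factor of respiratory supercomplexes, and the role of Atp5s in the synthase is less certain.

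Complex II, the succinate dehydrogenase, links the citric acid cycle to the respiratory chain and has no subunit from mitochondrial DNA. Complex III passes electrons from ubiquinol to cytochrome c, complex IV passes them on to oxygen, and complex V uses the resulting proton gradient to make ATP. Complexes III, IV and V each combine nuclear subunits with a few that are encoded in mitochondrial DNA, and the heart, which works without pause, is among the tissues richest in all of them. Several subunits of complex IV come in a form of heart and skeletal muscle and a form found in most tissues.

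Polyadenylated RNA was sequenced from the hearts of 3 WT and 3 Mc4r KO mice, all male and 12 weeks of age, with 1 library per mouse. The knockouts were homozygous, and the controls were WT littermates from matings of heterozygotes on a C57B/6/N background, fed standard chow. Mc4r, the melanocortin-4 receptor, acts mainly in the brain to limit food intake, and the deletion was not restricted to the heart. One sample field calls the tissue heart and the sample titles call it muscle, while the discussion of the study speaks of the left ventricle. In WT, 14767929, 14888500 and 16047003 reads fell on genes, and in Mc4r KO 14691076, 15535174 and 15649074, in the order of the replicates, which holds for all values below. Mc4r itself had 2 reads in WT replicate 3 and 0 in the other libraries, which is below the floor of 3 reads, so that the genotype could not be checked from it.

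Cardiomyocyte genes were abundant in all libraries, and their most abundant gene, Actc1 (cardiac actin), was between 4568 FPKM in WT replicate 3 and 8307 FPKM in Mc4r KO replicate 2. Markers of skeletal muscle summed to at most 2.29 FPKM, with Myh4 at 0, so the title muscle was not borne out for skeletal muscle. WT replicate 3 stood apart from the other WT libraries. The 5 atrial markers summed to 798 FPKM there, against 28.7 and 95.2 FPKM in WT replicates 1 and 2 and 137, 6.29 and 43.7 FPKM in the Mc4r KO libraries, and Nppa (atrial natriuretic peptide), the most abundant, was at 314 FPKM. Reads on mitochondrially encoded genes took 34.9% and 32.6% of all reads in WT replicates 1 and 2, 26.3% in WT replicate 3, and 23.3%, 25.8% and 23.4% in Mc4r KO. In the read statistics of the study, WT replicates 1 and 2 also had a lower GC content than all other libraries. Their share of reads mapped to more than 1 place was larger. The part of these differences between libraries in the results below was not tested. The 5 erythrocyte markers summed to 4497, 859 and 6344 FPKM in WT and to 1651, 663 and 620.3 FPKM in Mc4r KO. Across 11297 genes, which are not independent, the log2 levels of WT replicate 3 had r = 0.962 with Mc4r KO replicate 1, r = 0.951 with Mc4r KO replicate 2 and r = 0.952 with Mc4r KO replicate 3, beside r = 0.946 with WT replicate 1 and r = 0.952 with WT replicate 2. The counts of calls, the largest fold changes, the sums of complexes and some ratios are therefore given with and without it. Other values are mostly given with it only.

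The members were among the most abundant nuclear transcripts of the heart. The mean FPKM over the 6 libraries was at least 100 for 43 members, and 15 of them were within the first 100 genes of the whole table. Together they summed to 13532, 13956 and 17012 FPKM in the WT libraries and to 18003, 19011 and 18302 FPKM in the Mc4r KO libraries. WT replicate 3 thus lay between the other WT libraries and the Mc4r KO libraries, and the groups did not overlap. As a share of all FPKM outside the mitochondrial chromosome the sums were 6.26%, 6.47% and 6.97% in WT and 7.28%, 7.19% and 7.0% in Mc4r KO. On that scale too the groups did not overlap, and the gap between the highest WT and the lowest Mc4r KO library was narrow. A level in whole tissue cannot tell fewer cells of a type from less RNA per cell.

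**Figure D1:**
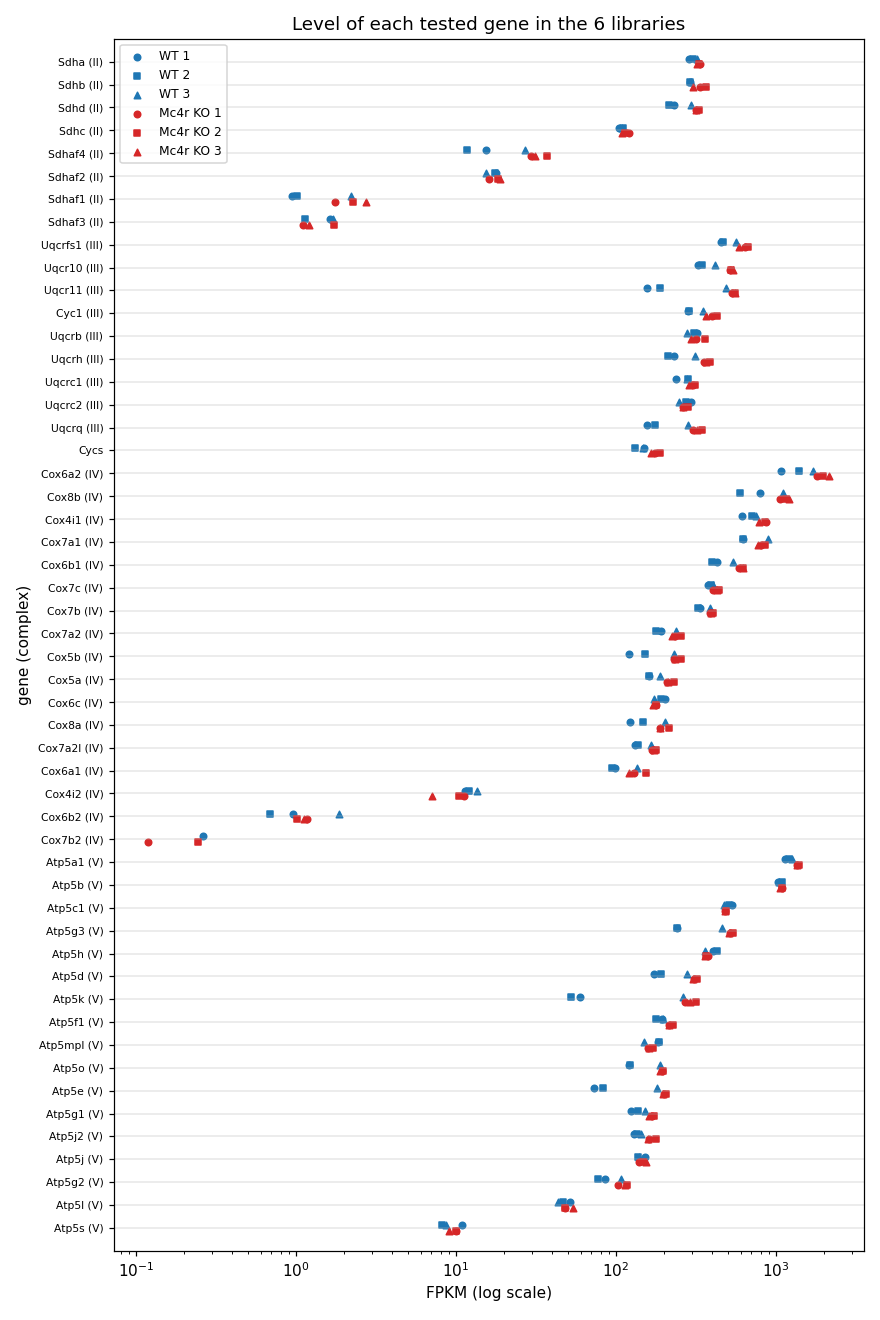
FPKM of the 52 tested genes in each library (log axis; WT blue, Mc4r KO red, marker shape by replicate; the 3 values of 0 of Cox7b2 are not drawn). Atp5k, Uqcr11, Atp5e and Sdhaf4 show WT replicates 1 and 2 apart from the other 4 libraries, while Atp5b, Atp5c1, Uqcrc2 and Cox6c lie close together.

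Compared with the WT libraries, no member passed the test in Mc4r KO (limma, with an adjusted p under 0.05 and a log2 fold change beyond 0.75 in either direction), against a background of 83 genes called of 18035 tested, or 0.460%. The lowest adjusted p was 0.0808, for Uqcr10. The members nevertheless lay on one side. The log2 fold change was positive for 45 of the 52 and negative for 7, against 48.8% positive among all genes tested. An unadjusted limma p under 0.05 was reached by 22 members, all higher in Mc4r KO, or 42.3%, where the background was 12.0% of genes higher and 8.83% lower. All 3 Mc4r KO libraries were above all 3 WT libraries for 26 members (50%, background 14.1%) and below them for 1, Cox4i2 (background 12.4%), and 25 members overlapped.

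The median log2 fold change of the tested members was 0.28, against -0.01 for all genes tested. Abundant genes in general leaned the same way. At a mean FPKM of 10 or more there were 3234 nuclear genes, of which 68.2% had a positive fold change, with a median of 0.13, 33.8% had all Mc4r KO libraries above all WT libraries, and 30.9% were higher in Mc4r KO at an unadjusted limma p under 0.05. Of the 47 members at that level, 41 were positive, with a median of 0.28, 26 did not overlap and were higher in Mc4r KO, and 22 were higher at an unadjusted p under 0.05. The members' median was 0.11 after quantile normalization, with 34 of 52 positive. Scaling to the FPKM outside the mitochondrial chromosome moved the median of all genes by -0.18, and relative to all genes the members' median was then 0.27, with 32 of 52 above 0 in absolute terms. With the mitochondrial share of reads as a covariate, the members' median was 0.07 and no member had an unadjusted limma p under 0.05, nor was any gene called. That share was higher in every WT library than in every Mc4r KO library, so this fit cannot tell it apart from genotype.

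WT replicate 3 decided the number of calls. In 37 of the 52 members it was above both other WT libraries, in 8 it was below both, and in 14 it fell within the range of the Mc4r KO libraries. Such counts were not taken over all genes. The members' median log2 difference between WT replicate 3 and the mean of WT replicates 1 and 2 was 0.27 (all genes tested 0.00), and that between the Mc4r KO mean and WT replicate 3 was 0.13 (all genes tested 0). Among nuclear genes at 10 FPKM or more, the first difference was 0.29 for those with a gene length of up to 1000 bases. It was -0.03 for those over 4000 bases. Without WT replicate 3, limma called 9 members, all higher in Mc4r KO, against a background of 726 of 17966 genes, or 4.04%: Atp5k, Uqcr11, Atp5e, Sdhaf4, Atp5g3, Sdhaf1, Uqcrq, Cox5b and Atp5d. The members with an unadjusted p under 0.05 then numbered 34 (32 higher, 2 lower), while they numbered 9 without WT replicate 1, 7 without WT replicate 2 and 10 without Mc4r KO replicate 2. With array weights, which give each library a weight by its spread, 6 members were called (background 2.41%), and with limma voom on the reads recovered from FPKM only Atp5g3 was called (background 1.74%). Uqcr10, Uqcrh and Uqcrq had adjusted p-values of 0.0198, 0.0382 and 0.0465 under limma voom, with log2 fold changes of 0.55, 0.56 and 0.71 that stayed below the threshold of 0.75.

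**Figure D2:**
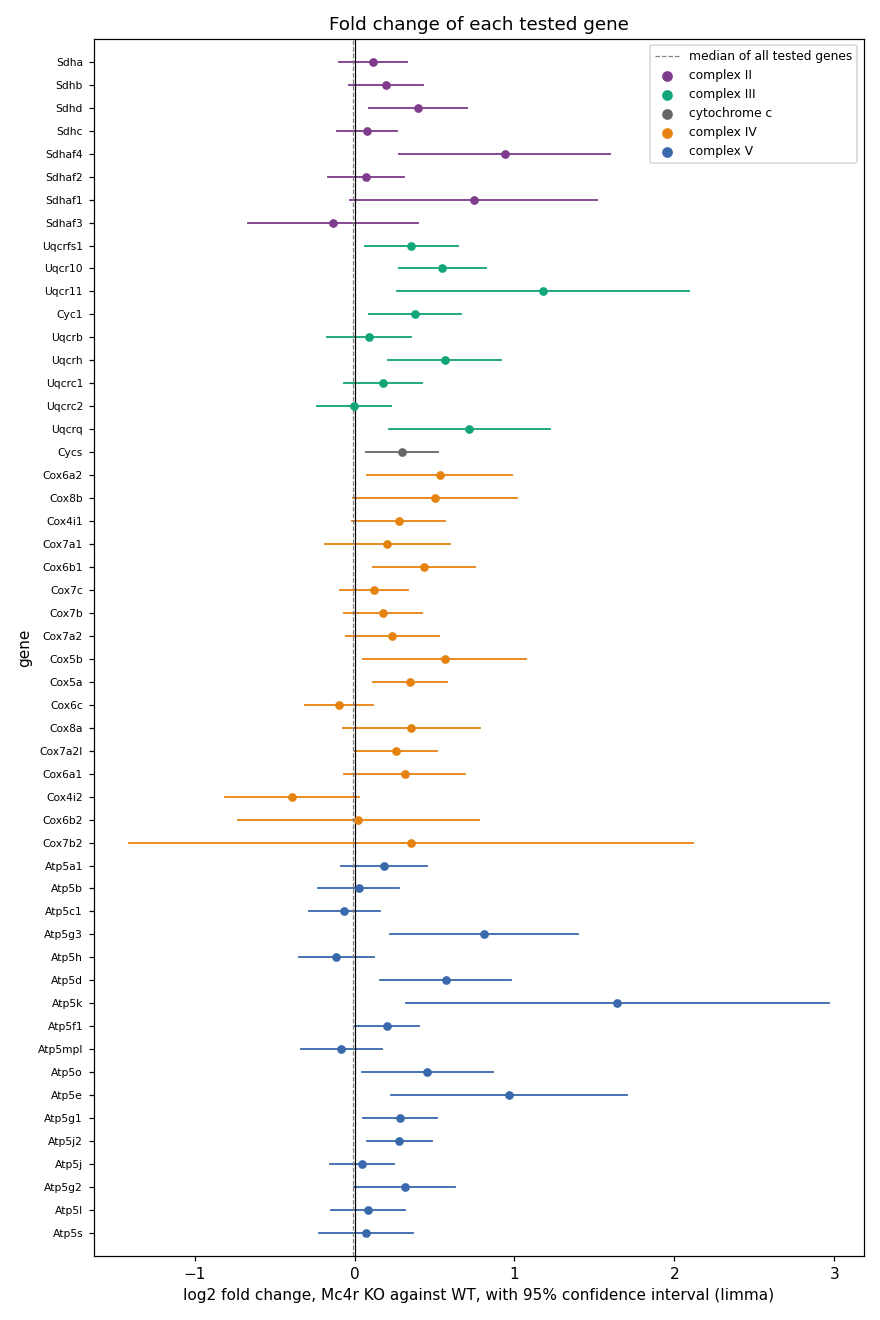
Log2 fold change of each tested gene, Mc4r KO against WT, with its 95% confidence interval from limma, coloured by complex (n = 3 and 3). The dashed line at -0.01 is the median of all genes tested, and 45 of the 52 points lie above 0.

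The largest differences were seen in 5 genes that encode small proteins, each with a log2 fold change beyond 0.75. Atp5k encodes subunit e of the synthase, which helps to join synthases into dimers. It was at 59.5, 52.7 and 263 FPKM in WT and at 271, 318 and 292 FPKM in Mc4r KO, a log2 fold change of 1.64 (SE 0.56, limma adjusted p = 0.168). WT replicates 1 and 2 were low and WT replicate 3 lay just under the lowest Mc4r KO library. Without WT replicate 3 the log2 fold change was 2.39 (limma adjusted p = 0.00132). It was 1.31 without WT replicate 1 and 1.22 without WT replicate 2 (limma adjusted p = 0.401 and 0.357).

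Uqcr11, the smallest subunit of complex III, was at 155, 187 and 485 FPKM in WT and at 527, 558 and 556 FPKM in Mc4r KO, a log2 fold change of 1.18 (SE 0.39, limma adjusted p = 0.157) and of 1.68 without WT replicate 3. Atp5e encodes the epsilon subunit in the central stalk of the synthase. It was at 72.5, 82.8 and 180.4 FPKM in WT and at 200.4, 206 and 196 FPKM in Mc4r KO, a log2 fold change of 0.97 (SE 0.31, limma adjusted p = 0.154) and of 1.37 without WT replicate 3. Neither gene overlapped between the groups, and only WT replicates 1 and 2 were far below the Mc4r KO values. Atp5g3, 1 of 3 genes for the same subunit c of the membrane rotor, was at 239, 239 and 459 FPKM in WT and at 515, 537 and 511 FPKM in Mc4r KO, a log2 fold change of 0.81 (SE 0.25, limma adjusted p = 0.140) and of 1.12 without WT replicate 3. Sdhaf4, an assembly factor of complex II, was at 15.4, 11.6 and 26.8 FPKM in WT and at 29.3, 37.1 and 31.4 FPKM in Mc4r KO, a log2 fold change of 0.94 (SE 0.28, limma adjusted p = 0.134) and of 1.27 without WT replicate 3. Without WT replicate 1 the log2 fold changes of Uqcr11, Atp5e, Atp5g3 and Sdhaf4 were 0.86, 0.71, 0.65 and 0.87. Without WT replicate 2 they were 0.99, 0.81, 0.65 and 0.67, and neither fit called any of them. With the mitochondrial share of reads as a covariate, the log2 fold changes of Atp5k, Uqcr11 and Atp5e turned to -0.066, -0.072 and -0.033. The share did not overlap between the groups, so it cannot be told apart from genotype in that fit.

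The promoters of 3 of these 5 genes held a match to a motif of a known regulator of respiratory genes and are shown for that reason, from 250 bases before to 10 bases after the start that RefSeq gives (GRCm38.p6, all on the minus strand, 5′ to 3′, motif matches in capitals). The windows are chr5:108434390-108434649 for Atp5k, chr10:80406812-80407071 for Uqcr11 and chr2:73911317-73911576 for Atp5g3. The capitals are overlapping NRF1 motifs in Atp5k, an ETS motif and then an NRF1 motif in Uqcr11, and an ERR motif in Atp5g3.
Atp5k: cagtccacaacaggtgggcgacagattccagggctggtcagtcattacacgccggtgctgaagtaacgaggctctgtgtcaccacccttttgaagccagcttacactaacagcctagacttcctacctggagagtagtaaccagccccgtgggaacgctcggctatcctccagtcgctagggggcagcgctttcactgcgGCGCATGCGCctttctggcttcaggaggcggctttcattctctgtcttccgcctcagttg
Uqcr11: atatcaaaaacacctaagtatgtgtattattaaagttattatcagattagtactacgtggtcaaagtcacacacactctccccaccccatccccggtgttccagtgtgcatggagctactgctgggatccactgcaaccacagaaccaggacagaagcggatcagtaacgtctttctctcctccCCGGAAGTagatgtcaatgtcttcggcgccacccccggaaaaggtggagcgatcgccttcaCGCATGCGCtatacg
Atp5g3: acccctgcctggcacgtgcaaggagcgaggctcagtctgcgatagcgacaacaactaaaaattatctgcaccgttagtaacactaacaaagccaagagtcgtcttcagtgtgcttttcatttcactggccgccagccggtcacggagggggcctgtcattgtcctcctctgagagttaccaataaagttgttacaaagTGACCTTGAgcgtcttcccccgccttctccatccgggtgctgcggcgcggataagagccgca
The NRF1 motif was searched as GCGCATGCG, the ETS motif of GABPA as CCGGAAGT, the ERR motif as TCAAGGTCA and the YY1 motif as AAGATGGCG, each on both strands over 300 bases, 250 before and 50 after the start. RefSeq windows matched 41 of the members. The NRF1 motif was found in 7 of them (17.1%, against 1.95% of the 27025 genes with a window): Uqcr11, Uqcrc1, Cycs, Cox6a1, Atp5k, Atp5g2 and Atp5l. The ETS motif was found in 4 (9.76%, against 4.31%): Uqcr11, Uqcrh, Cox8a and Atp5h. The ERR motif was found in Sdhd and Atp5g3 (4.88%, against 0.466%) and the YY1 motif in Atp5j2 and Atp5j (4.88%, against 1.64%). Genes with a match to the same NRF1 motif differed in their fold changes, which were 1.64 for Atp5k and 0.08 for Atp5l on the log2 scale. A match is a description of letters and not a sign of binding.

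In complex II, the 4 subunits were at similar or higher levels in Mc4r KO, and the assembly factors were far less abundant. Sdha, the flavoprotein that oxidizes succinate and the most abundant gene of the complex, was at 286, 302 and 323 FPKM in WT and at 333, 329 and 322 FPKM in Mc4r KO, a log2 fold change of 0.11 (SE 0.09, limma adjusted p = 0.528) that was -0.083 after scaling outside the mitochondrial chromosome and -0.13 after quantile normalization. The groups overlapped. Sdhb, the iron-sulfur subunit, had means of 292 ± 2.81 FPKM in WT and 335 ± 29.4 FPKM in Mc4r KO (SD, n = 3 each), and Sdhc, which anchors the enzyme in the membrane, had 108 ± 3.1 and 114 ± 5.63 FPKM. The other anchor, Sdhd, was at 246 ± 42.1 and 322 ± 9.15 FPKM (log2 fold change 0.40, limma adjusted p = 0.156), with no overlap between the groups. Of the assembly factors beside Sdhaf4, Sdhaf2, which inserts the flavin, was at 16.9 ± 1.31 and 17.8 ± 1.47 FPKM. Sdhaf1 had 1.39 ± 0.719 and 2.26 ± 0.497 FPKM and Sdhaf3 1.49 ± 0.306 and 1.35 ± 0.335 FPKM. Exons of a gene on the opposite strand covered 69.6% of Sdhaf1, and strand use in counting is not given in the sources used here, so its reads are uncertain. Of the 8 genes of complex II, 2 had an unadjusted limma p under 0.05 and 3 had no overlap, all higher in Mc4r KO. Among nuclear genes at 10 FPKM or more these shares were 30.9% and 33.8%.

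In complex III, the largest log2 fold changes were those of the small subunits Uqcr11, Uqcrq, Uqcrh and Uqcr10, and the large core proteins had smaller ones. Uqcr10, a small subunit of the membrane part, had the lowest p of all members. It was at 327, 347 and 414 FPKM in WT and at 517, 527 and 540.3 FPKM in Mc4r KO, a log2 fold change of 0.55 (SE 0.12, limma adjusted p = 0.0808, and 0.0462 when only protein-coding genes were tested). No library of one group reached the range of the other, and WT replicate 3 was the highest of the WT libraries. Uqcrh, the hinge protein at the docking site of cytochrome c, was at 232, 212 and 311 FPKM in WT and at 352, 385 and 364 FPKM in Mc4r KO (log2 fold change 0.56, SE 0.15, limma adjusted p = 0.112). Uqcrq, a subunit next to cytochrome b, was at 156, 174 and 281 FPKM in WT and at 303, 347 and 323 FPKM in Mc4r KO (log2 fold change 0.72, SE 0.21, limma adjusted p = 0.133). In both, the highest WT library was again replicate 3 and lay below all Mc4r KO libraries.

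The most abundant gene of complex III was Uqcrfs1, the Rieske iron-sulfur protein, at 453, 467 and 563 FPKM in WT and 638, 667 and 588 FPKM in Mc4r KO (log2 fold change 0.36, SE 0.12, limma adjusted p = 0.172). Cyc1, the cytochrome c1 that hands electrons to cytochrome c, was at 307 ± 37.8 and 398 ± 32.5 FPKM (SD, n = 3 each). Of the core proteins, Uqcrc1 had 265 ± 25.2 and 299 ± 13.5 FPKM and Uqcrc2 271 ± 22.8 and 269 ± 11.1 FPKM, a log2 fold change of -0.01 with a 95% interval from -0.24 to 0.23. Uqcrb, another small subunit, was at 303 ± 21.7 and 323 ± 33.3 FPKM. Of its 50-base words 25.5% also occur in other genes, so reads may be lost from it or be placed on it wrongly. In all, 6 of the 9 genes of complex III had an unadjusted p under 0.05 and 7 had no overlap, all higher in Mc4r KO. Among nuclear genes at 10 FPKM or more these shares were 30.9% and 33.8%. Cycs, the soluble carrier cytochrome c, was at 149, 131 and 148 FPKM in WT and at 174, 187 and 164 FPKM in Mc4r KO (log2 fold change 0.30, SE 0.10, limma adjusted p = 0.151). Here WT replicate 3 was level with WT replicate 1 and the groups did not overlap. Cycs shares 26.1% of its words with other genes.

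In complex IV, the 2 most abundant members were the muscle isoforms Cox6a2 and Cox8b. Cox6a2, the muscle form of a regulatory subunit, led all 54 members with 1079, 1384 and 1708 FPKM in WT and 1805, 1979 and 2158 FPKM in Mc4r KO, a log2 fold change of 0.53 (SE 0.19, limma adjusted p = 0.187). The groups did not overlap, although the WT libraries were spread over a wider range than the gap between the groups. Cox8b, another muscle form, was at 797, 597 and 1101 FPKM in WT and at 1067, 1162 and 1202 FPKM in Mc4r KO (log2 fold change 0.50, SE 0.22, limma adjusted p = 0.249), where WT replicate 3 lay inside the Mc4r KO range. Cox7a1, the muscle form of a subunit at the dimer interface, was at 617, 624 and 897 FPKM in WT and at 807, 848 and 774 FPKM in Mc4r KO (log2 fold change 0.21, SE 0.17, limma adjusted p = 0.530), with WT replicate 3 the highest of the 6 libraries. Cox4i1, the usual form of the regulatory subunit 4, was at 611, 709.6 and 755 FPKM in WT and 867, 858 and 782 FPKM in Mc4r KO (log2 fold change 0.28, SE 0.12, limma adjusted p = 0.258).

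Cox5a, a matrix-side subunit, was at 161, 162 and 188 FPKM in WT and at 208, 229 and 212 FPKM in Mc4r KO, a log2 fold change of 0.35 (SE 0.10, limma adjusted p = 0.124). It was the member of complex IV with the lowest p, and the groups did not overlap. Cox5b, also on the matrix side and a zinc-binding subunit, was at 167 ± 55.6 and 239 ± 12.7 FPKM, and Cox6b1, which faces the intermembrane space, at 455 ± 74.0 and 609 ± 22.9 FPKM (SD, n = 3 each). Cox7b had 349 ± 35.1 and 393 ± 9.0 FPKM and Cox7a2l 145 ± 18.6 and 172 ± 4.70 FPKM. The values of Cox7c, 391 ± 13.1 and 425 ± 17.1 FPKM, and Cox6c, 189 ± 14.3 and 176 ± 4.70 FPKM, differed little. Cox6b2 and Cox7b2, known as forms of the testis, were near the floor, with 1.17 ± 0.609 and 1.10 ± 0.0797 FPKM for the first and at most 2 reads in any library for the second. In all, 5 of the 17 tested genes of complex IV had an unadjusted p under 0.05, all higher in Mc4r KO. All Mc4r KO libraries were above all WT libraries for 7 genes and below them for Cox4i2. Among nuclear genes at 10 FPKM or more, 30.9% were higher at such a p and 33.8% had all Mc4r KO libraries above.

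Isoform ratios were taken within each library, where the scaling between libraries cancels. The ratio of Cox4i2, a form known from lung and from vessel walls, to Cox4i1 was 0.0189, 0.0172 and 0.0180 in WT and 0.0130, 0.0123 and 0.00913 in Mc4r KO. The groups did not overlap, the log2 difference was -0.67, and it was -0.67 without WT replicate 3 as well (exact permutation p = 0.1, the smallest that 3 against 3 allows, and 0.25 after adjustment over the 5 ratios, n = 3 each). Cox4i2 itself was the single member with all Mc4r KO libraries below all WT libraries, at 11.4, 12.1 and 13.5 FPKM in WT and 11.2, 10.4 and 7.04 FPKM in Mc4r KO (log2 fold change -0.39, SE 0.18, limma adjusted p = 0.269). Its log2 fold change was -0.18 without Mc4r KO replicate 3 and -0.70 with the GC content and length trends removed, a setting chosen after seeing the data. The 5 markers of smooth muscle and pericytes summed to 283, 278 and 213 FPKM in WT and to 259.7, 276 and 186 FPKM in Mc4r KO, with Rgs5 the most abundant, and no marker of the list was at 0 in all libraries. The list was split, with 2 of the 5 positive. Rgs5 had a log2 fold change of -0.32, while Acta2 and Myh11 had 0.43 and 0.40, and none was called. The part of these 5 markers in the ratio was not tested.

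The ratios of the muscle forms to the common forms overlapped between the groups. Cox6a2 to Cox6a1 was 12.8 ± 1.91 in WT and 14.9 ± 2.58 in Mc4r KO (log2 difference 0.22, exact permutation p = 0.4, SD, n = 3 each), with Cox6a1 at 98.8, 93.9 and 135 FPKM in WT and 129, 154 and 121 FPKM in Mc4r KO (log2 fold change 0.31, SE 0.16, limma adjusted p = 0.316). Cox7a1 to Cox7a2 was 3.503 ± 0.296 and 3.42 ± 0.0689 (log2 difference -0.03, exact permutation p = 0.7, n = 3 each), with Cox7a2 at 192, 179 and 236 FPKM in WT and 234, 254 and 223 FPKM in Mc4r KO (log2 fold change 0.24, SE 0.12, limma adjusted p = 0.331). The size of this difference was far below the spread of either gene's level among the WT libraries. Cox8b to Cox8a was 5.34 ± 1.23 and 5.83 ± 0.506 (log2 difference 0.15, exact permutation p = 0.6, n = 3 each), with Cox8a at 122, 146 and 203 FPKM in WT and 189, 213 and 188 FPKM in Mc4r KO (log2 fold change 0.35, SE 0.18, limma adjusted p = 0.318). The common forms thus had positive fold changes as well, none of them past the test, and those of Cox6a1 and Cox8a turned to -0.11 and -0.0019 once the trends with GC content and gene length were removed.

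**Figure D3:**
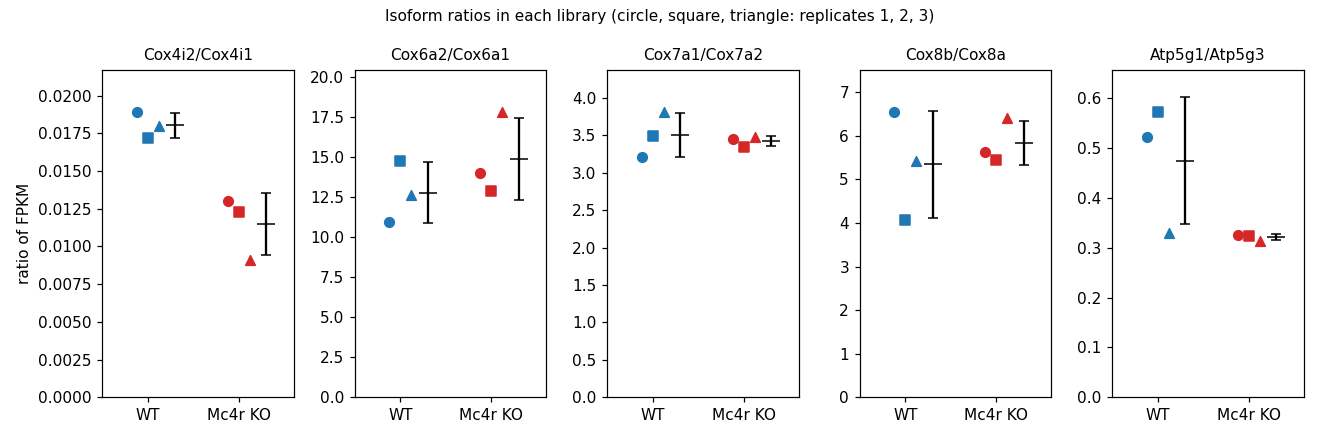
Ratio of the FPKM of 2 genes for the same subunit in each library (y axes from 0; bars are mean and SD, n = 3). The Cox4i2 to Cox4i1 points of the groups do not overlap, and the Atp5g1 to Atp5g3 ratio of WT replicate 3 (0.330) lies close to the Mc4r KO values (0.314 to 0.326).

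In complex V, the subunits of the catalytic head differed little, and the largest fold changes were those of small subunits. Atp5a1, the alpha subunit of the catalytic head, was at 1145, 1212 and 1255 FPKM in WT and at 1355, 1393 and 1358 FPKM in Mc4r KO, a log2 fold change of 0.19 (SE 0.11, limma adjusted p = 0.403) that was -0.010 after scaling outside the mitochondrial chromosome. Atp5b, the beta subunit that holds the active site, was at 1055 ± 35.0 and 1074 ± 17.5 FPKM (SD, n = 3 each), and its log2 fold change was 0.03 with a 95% interval from -0.23 to 0.28. Of the central stalk, Atp5c1 (gamma) was at 506 ± 27.8 and 483 ± 4.66 FPKM, while Atp5d (delta) was at 214 ± 55.9 and 312 ± 10.3 FPKM (log2 fold change 0.57, limma adjusted p = 0.139) and 0.77 on the log2 scale without WT replicate 3. Stalk subunits that sit together in the enzyme therefore had fold changes from -0.06 for gamma to 0.97 for epsilon.

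Of the peripheral stalk, Atp5f1 (subunit b) was at 189 ± 9.41 and 218 ± 6.58 FPKM, Atp5h (subunit d) at 396 ± 33.1 and 365 ± 7.01 FPKM, and Atp5j (F6) at 142 ± 7.41 and 147 ± 6.94 FPKM. Atp5o, the subunit that confers oligomycin sensitivity, was at 144 ± 38.9 and 193 ± 3.98 FPKM, but 41.6% of its 50-base words occur in other genes. Of the small membrane subunits beside Atp5k, Atp5j2 (subunit f) was at 136 ± 6.41 and 165 ± 10.02 FPKM and did not overlap between the groups (log2 fold change 0.28, limma adjusted p = 0.142). Atp5l (subunit g), which lies beside subunit e, was at 47.3 ± 4.36 and 49.96 ± 3.48 FPKM, and Atp5mpl, a small proteolipid, at 174 ± 20.3 and 163 ± 6.35 FPKM. Subunits e and g, which are partners in the enzyme, had log2 fold changes of 1.64 and 0.08. Atp5s was at 9.28 ± 1.44 and 9.69 ± 0.557 FPKM. In all, 8 of the 17 tested genes of complex V had an unadjusted p under 0.05, all higher in Mc4r KO, and 8 did not overlap, beside 30.9% and 33.8% of nuclear genes at 10 FPKM or more.

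Subunit c of the rotor is made from 3 genes whose mature proteins are identical. Atp5g1 was at 125, 136 and 151 FPKM in WT and at 168, 173 and 160.2 FPKM in Mc4r KO (log2 fold change 0.29, SE 0.10, limma adjusted p = 0.169), and Atp5g2 at 85.8, 77.3 and 108 FPKM and 102, 117 and 115 FPKM. Of the summed FPKM of the 3 genes, Atp5g3 made up 53.2%, 52.8% and 63.9% in WT and 65.6%, 64.9% and 65.0% in Mc4r KO. Atp5g1 made up 26.3% ± 4.69 in WT and 20.9% ± 0.494 in Mc4r KO, and Atp5g2 17.1% ± 2.05 and 13.9% ± 0.798 (SD, n = 3 each). The ratio of Atp5g1 to Atp5g3 was 0.522, 0.571 and 0.330 in WT and 0.326, 0.323 and 0.314 in Mc4r KO, a log2 difference of -0.52 (exact permutation p = 0.1, 0.25 after adjustment over the 5 ratios, n = 3 each) and of -0.77 without WT replicate 3. WT replicate 3 sat at the edge of the Mc4r KO values, so the gap between the groups was set by WT replicates 1 and 2. Of the words of Atp5g1, 11.1% are shared with other genes, of those of Atp5g2 38.3%, and of those of Atp5g3 none.

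Summed over the genes of a complex, each level in FPKM was higher in all Mc4r KO libraries than in all WT libraries. The sum of complex II was 946, 951 and 1067 FPKM in WT and 1155, 1199 and 1106 FPKM in Mc4r KO, a ratio of means of 1.17. That of complex III was 2457, 2536 and 3209.8 FPKM and 3619.6, 3865 and 3576 FPKM, a ratio of 1.35, the highest of the complexes. Complex IV summed to 5283, 5502 and 7138 FPKM and to 7270.3, 7782 and 7689.8 FPKM (ratio 1.27), and complex V to 4697, 4836 and 5449 FPKM and to 5784, 5978 and 5766 FPKM (ratio 1.17). Against the mean of WT replicates 1 and 2 alone, the ratios were 1.22, 1.48, 1.41 and 1.23 for complexes II, III, IV and V, and against WT replicate 3 alone they were 1.08, 1.149, 1.06 and 1.07. As shares of the FPKM outside the mitochondrial chromosome, the sums of complexes II and V overlapped between the groups. Those of complexes III and IV did not, by a narrow gap for complex IV. For complex II the lowest library was then Mc4r KO replicate 3. Differences between the complexes were not tested.

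**Figure D4:**
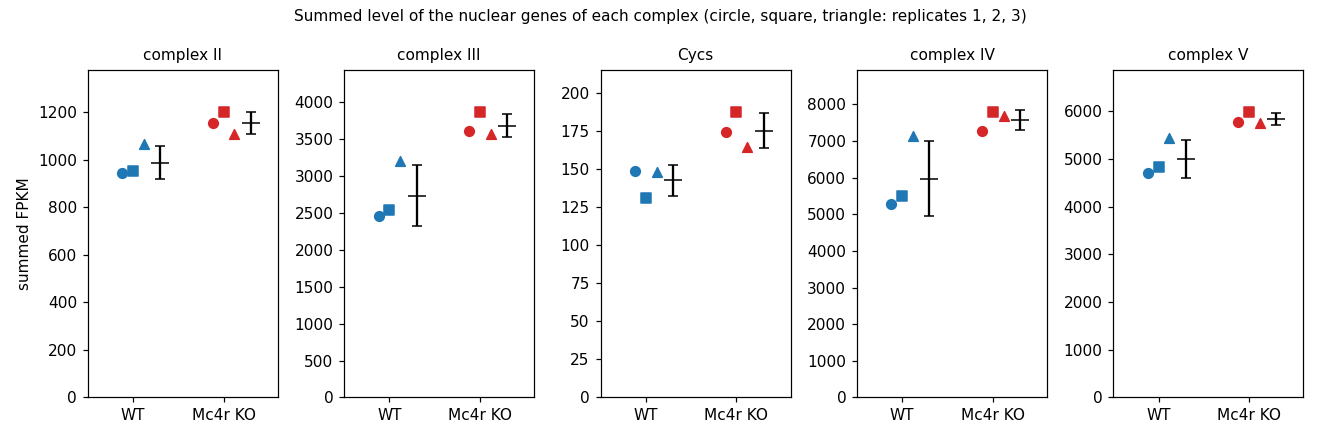
Summed FPKM of the nuclear genes of each complex and of Cycs in each library (y axes from 0; bars are mean and SD, n = 3). In each panel the Mc4r KO points lie above the WT points, and WT replicate 3 (triangle) is the highest WT point of complexes II to V.

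The partner subunits from mitochondrial DNA did not share this side. The 6 mitochondrially encoded genes of complexes III to V summed to 152501, 139754 and 107963 FPKM in WT and to 96693, 115466 and 100467 FPKM in Mc4r KO. Their median log2 fold change was -0.19, 2 of the 6 were positive, none was called, and 1 had an unadjusted limma p under 0.05 and was lower. The most abundant, mt-Co1 of complex IV, was at 88525, 81949 and 60734 FPKM in WT and at 55224, 64589.6 and 55513 FPKM in Mc4r KO (log2 fold change -0.38, limma adjusted p = 0.629), with WT replicate 3 inside the Mc4r KO range. The nuclear sum of complex IV was 5.27%, 5.79% and 10.3% of its mitochondrially encoded sum in WT and 11.5%, 10.6% and 12.0% in Mc4r KO. For complex III the shares were 5.05%, 6.11% and 9.75% and 11.9%, 10.4% and 10.9%. Both complexes thus had a higher nuclear share in every Mc4r KO library, with WT replicate 3 close below. For complex V, where mt-Atp6 and mt-Atp8 overlap in the genome, the shares were 128% ± 26.6 and 159% ± 29.5 (SD, n = 3 each) and the groups overlapped. The genes of complex I in mitochondrial DNA, 7 in number, had a median of -0.49 with 1 positive, none called and 1 lower at an unadjusted limma p under 0.05, and mt-Nd1, the most abundant, had a log2 fold change of -0.46 (limma adjusted p = 0.493). Without WT replicate 3, mt-Nd5 and mt-Nd6 were called lower by limma, while limma voom called none of these 7.

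Genes with short coding sequences had the larger fold changes. Of the 47 members at 10 FPKM or more, 17 have a longest coding sequence in GENCODE M21 of at most 300 bases, and the median of their log2 fold changes was 0.43, against 0.23 for the 30 with a longer one. With the members left out, the median was 0.23 over the 107 nuclear genes at that level with at most 300 coding bases and 0.12 over the 2925 with more. In bins of up to 300, 300 to 450, 450 to 900 and over 900 coding bases the medians of all these genes, members included, were 0.28, 0.27, 0.15 and 0.10, and those of the members 0.43, 0.30, 0.20 and 0.15. The members' median was above that of all genes in each bin, although the last held only 6 members.

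The fold change of all genes also moved with the length of the whole gene model and with GC content. In bins of up to 1000, 1000 to 2000, 2000 to 4000 and over 4000 bases of gene model, the medians were 0.28, 0.23, 0.14 and 0.06 for all genes and 0.43, 0.33, 0.19 and 0.15 for the members. With GC contents of up to 45%, 45 to 50%, 50 to 55% and over 55%, they were -0.07, 0.04, 0.17 and 0.30 for all genes and 0.18, 0.11, 0.46 and 0.33 for the members, which did not rise steadily. WT replicate 3 differed from WT replicates 1 and 2 along the same axis, by a median of 0.24 on the log2 scale for genes of at most 300 coding bases and of 0.00 for those over 900. The part of length and GC content in the members' fold changes was not tested beyond removing their trends from each library. With the trend of GC content alone removed, the members' median was 0.27 with 46 of 52 positive. Once the trend with gene length was removed, the members' median was 0.15 with 37 of 52 positive, and with the trends of GC content and length removed it was 0.16 with 43 of 52 positive, both of the latter chosen after seeing the data.

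**Figure D5:**
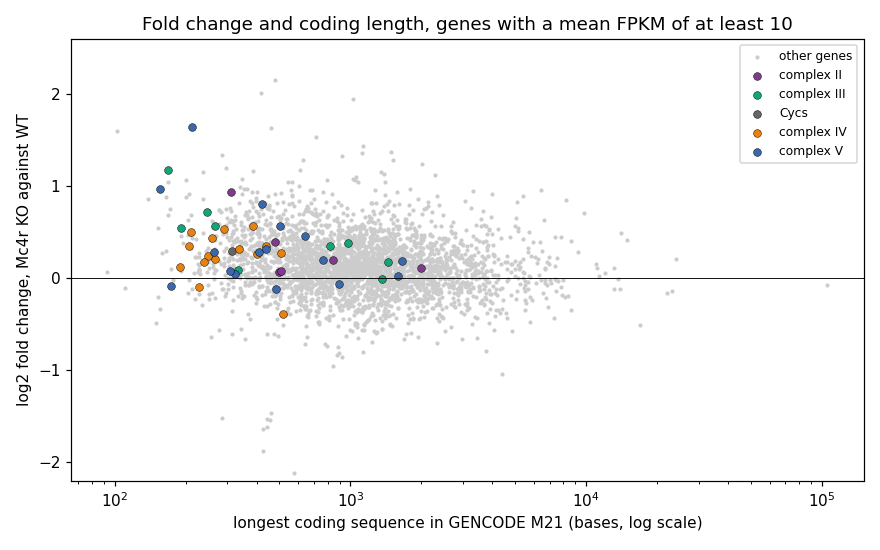
Log2 fold change, Mc4r KO against WT, against the longest coding sequence (bases, log axis) for nuclear genes at 10 FPKM or more, with the members coloured by complex. The 5 members above 0.75 all have fewer than 450 coding bases, and 4 genes lie outside the plotted range.

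Of the genes that build and serve these complexes, none was called by limma in any list. As background, 12.0% of all genes and 30.9% of nuclear genes at 10 FPKM or more were higher at an unadjusted limma p under 0.05. A positive fold change was seen in 48.8% and 68.2% of them. The 7 tested assembly factors of complex III were all positive with a median of 0.29 on the log2 scale, 3 of them with an unadjusted limma p under 0.05, and the most abundant, Uqcc2, was at 43.4, 56.8 and 64.0 FPKM in WT and 67.9, 82.7 and 76.3 FPKM in Mc4r KO. Of the 23 tested genes listed for complex IV assembly, 20 were positive (median 0.37) and 10 had an unadjusted p under 0.05, all higher, while the most abundant of the list, Ndufa4, itself known as a subunit of complex IV, was at 490.4, 415 and 409.8 FPKM in WT and at 461, 483 and 435 FPKM in Mc4r KO. Pet117 and Sco2 were listed at 0. Of the 6 genes listed for complex V assembly and inhibition, 5 were positive (median 0.21) and 3 had an unadjusted p under 0.05, all higher, with Usmg5, a small subunit of the synthase, the most abundant of the list (log2 fold change 0.10, limma adjusted p = 0.665). Of the 16 genes of coenzyme Q synthesis and the electron transfer flavoprotein, 14 were positive (median 0.27), 7 were higher and 1 lower at an unadjusted p under 0.05, and Etfa, the most abundant, had a log2 fold change of 0.29 (limma adjusted p = 0.240). Without WT replicate 3, limma called 5 genes of complex IV assembly (Cox14, Coa3, Higd1a, Cox11 and Pet100) and 1 of the coenzyme Q list (Etfb), all higher in Mc4r KO (background 4.04%), and limma voom called none of these 4 lists.

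Of the 37 nuclear genes of complex I, 33 had a positive fold change, with a median of 0.36 and 26 with an unadjusted limma p under 0.05, all higher in Mc4r KO, though none was called. The background at an unadjusted p was 12.0% of all genes and 30.9% of the abundant nuclear genes. Limma called 12 of the 37 without WT replicate 3 (background 4.04%), and limma voom called Ndufb6, Ndufb8 and Ndufa12 (background 1.74%), all higher in Mc4r KO. The genes that maintain and transcribe mitochondrial DNA lay around 0, with 8 of 14 positive, a median of 0.00, and 1 lower at an unadjusted p under 0.05, with Tfb2m the most abundant. The 10 nuclear regulators were split, with 4 positive, a median of -0.01, and 3 higher and 2 lower at an unadjusted limma p under 0.05. The most abundant, Esrra, the nuclear receptor ERR alpha that binds the ERR motif, was at 29.0, 31.6 and 64.8 FPKM in WT and at 71.9, 84.7 and 71.4 FPKM in Mc4r KO (log2 fold change 0.96, limma adjusted p = 0.135). Its values followed the pattern of Atp5k and Uqcr11, with WT replicates 1 and 2 low and WT replicate 3 just under the Mc4r KO libraries, and it was called higher both without WT replicate 3 and by limma voom. The other ERR genes of the list, Esrrg and Esrrb, did not follow that pattern. Esrrg overlapped between the groups (log2 fold change -0.23, limma adjusted p = 0.408). Esrrb was lowest in WT replicate 3, at 3.27 FPKM (log2 fold change 0.50, limma adjusted p = 0.202). Of the regulators that bind the other motifs searched, Gabpa was lower in every Mc4r KO library (log2 fold change -0.21, limma adjusted p = 0.221), and Nrf1 and Yy1 overlapped between the groups (log2 fold changes 0.05 and -0.02, limma adjusted p = 0.881 and 0.932).

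Markers of other cell types moved unevenly beside these results. The summed level of the cardiomyocyte list was 15655, 16082 and 14796 FPKM in WT and 17990.1, 19621 and 18717 FPKM in Mc4r KO, so it too was higher in every Mc4r KO library, with 7 of 9 genes positive and none called. Unlike the members' sum, it was lowest in WT replicate 3, which rested on Actc1, at 5495, 5470 and 4568 FPKM in WT. Without Actc1, WT replicate 3 no longer had the lowest sum of the list. The fibroblast list summed to 169, 181 and 184 FPKM in WT and to 147, 138 and 131 FPKM in Mc4r KO, and its most abundant gene, Dcn, was lower in every Mc4r KO library (log2 fold change -0.53, limma adjusted p = 0.0579). Without Dcn the other 4 fibroblast genes summed to 43.6, 57.3 and 74.6 FPKM in WT and to 60.3, 61.2 and 47.7 FPKM in Mc4r KO, which overlapped, and 2 of the 5 had a positive fold change. The endothelial list summed to between 146 and 186 FPKM and the macrophage list to between 49.2 and 87.4 FPKM, with Cdh5 and C1qa the most abundant. Of the brown adipocyte list, Ucp1 and Elovl3 were at 0 in all libraries, and Cidea was at 12.1, 14.7 and 15.7 FPKM in WT and at 19.3, 27.0 and 26.2 FPKM in Mc4r KO. Cidea was called higher by limma voom and by limma without WT replicate 3, and C1qa was called higher without WT replicate 3. Of the other macrophage genes, Csf1r and Cd68 were lower in every Mc4r KO library (log2 fold changes -0.37 and -0.42, limma adjusted p = 0.183 and 0.186), while 2 of the 5 genes of the list, C1qa and Cd163, had a positive fold change and its median was -0.03. White adipocyte markers summed to 0.466, 0.876 and 0.739 FPKM in WT and to 0.223, 0.0283 and 0.0451 FPKM in Mc4r KO, with Lep and Retn at 0, and B cell markers to 2.49, 1.19 and 2.80 FPKM and to 0.422, 0.557 and 0.590 FPKM. Both sums were low in all libraries and lower in every Mc4r KO library. The part of these markers and of the atrial and erythrocyte markers in the members' differences was not tested.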

How the data were processed

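RNA of 6 hearts was sequenced, with 1 library per mouse. Per the study's methods, adapter-containing and low-quality reads were removed, pairs were aligned with HISAT2 (version 2.0.5) and reads were counted on genes with featureCounts. The submitters' processing notes name mm10. Which annotation was counted on, and whether strand was used, is not given in the sources used here. The authors deposited FPKM per gene and library, and all per-library columns were matched to a library. FPKM times gene length gave whole reads for 100% of values (tolerance 0.05 reads), from which depth was taken. The floor of 3 reads covers counting error only, while the confidence intervals of fold changes, from limma, rest on the spread between libraries.

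The 18035 genes whose mean FPKM reached 0.1 were tested with limma (version 3.58.1, R 4.3.3, with trend) on log2(FPKM + 0.1). Both groups entered 1 fit without covariates. Median-of-ratios scaling came first, but its factors were 1 in every library, so it left the deposited values unchanged. Fold changes of log2(FPKM + 0.1) understate the change of low genes. The p-values were two-sided with Benjamini-Hochberg adjustment over all genes, and calls had an adjusted p under 0.05 and a log2 fold change beyond 0.75 in either direction. Isoform ratios were compared by exact two-sided permutation tests with adjustment over 5 ratios. The same-numbered libraries of both groups did not deviate together, so no pairing was used. Each replicate is a separate mouse. The scripts were tested on simulated data with the same spread for all genes. Limma called 55.8% of 104 genes changed 2-fold and 99.0% of 96 changed 4-fold, with 18 false calls. Limma voom called 85.6% and 100%, with 2 false calls. Changes smaller than 2-fold were not simulated.

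Of the gene identifiers 99.8% matched GENCODE M21, which gave coding lengths, GC content, shared 50-base words and overlaps. Promoters came from RefSeq (GRCm38.p6). Members, gene lists and markers were chosen with earlier results of these data known. Named in full were members with an adjusted p under 0.05 (none) or a log2 fold change beyond 0.75, the 5 lowest p-values, the most abundant gene of each complex and the isoform pairs, and of other lists the genes called and the most abundant gene. Further genes of the lists were named after their values were seen. Some values of genes outside the members are not reported here. Alternatives were other pseudocounts, filters, scalings, variance models, thresholds and covariates, limma voom on recovered reads, removal of GC content and length trends (those with length chosen after seeing the data), and fits without each library. Figures were drawn with matplotlib (version 3.10.9).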

Additional observations from a re-analysis of the deposited data

How the results depend on the processing

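No member was called in any of the other fits beside those named here: 6 with array weights, 1 with limma voom on recovered reads, and 0 to 9 in the fits without 1 library each, where the 9 came without WT replicate 3. Of all genes, 83 were called, against 44 with a pseudocount of 1, 22 with no filter on low values, 147 with a mean FPKM of at least 1, 41 after scaling outside the mitochondrial chromosome (16 higher and 25 lower, against 57 and 26), 49 after quantile normalization, 21 without the trend, 435 with array weights, 314 with limma voom, 204 among protein-coding genes only, 0 with the mitochondrial share as a covariate (limma, 1891 genes at an unadjusted p under 0.05) and 7 to 726 without 1 library each. With the replicate number as a block, 11 genes and 0 members were called. The correlations of the deviations of same-numbered libraries were -0.14, 0.01 and -0.08, which gave no sign that the numbers pair the mice. Each WT library correlated best with a Mc4r KO library of another number, for WT replicate 2 with r = 0.012 against 0.007. Which mice shared a litter is not given in the sources used here, so pairing by litter could not be checked. The 22 members at an unadjusted p under 0.05 were all higher in Mc4r KO. They became 11 after scaling outside the mitochondrial chromosome (9 higher, 2 lower), 15 after quantile normalization (11 higher, 4 lower), 0 with the mitochondrial share as a covariate and 7 to 34 without 1 library each, where the 34 without WT replicate 3 held 2 lower.

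Of the 52 members, 45 had a positive log2 fold change, against 32 after scaling outside the mitochondrial chromosome, 34 after quantile normalization, 40 with the mitochondrial share as a covariate and 37 with the gene length trend removed. Among the members named in full, these signs turned. After scaling outside the mitochondrial chromosome the log2 fold change was -0.010 for Atp5a1 and -0.083 for Sdha, and after quantile normalization it was -0.13 for Sdha. With the mitochondrial share as a covariate it was -0.033 for Atp5e, -0.066 for Atp5k, -0.072 for Uqcr11, -0.20 for Cox7a1, -0.13 for Cox8a and -0.0087 for Sdha. With the trends of GC content and gene length removed, chosen after seeing the data, it was -0.11 for Cox6a1, -0.072 for Cox7a1 and -0.0019 for Cox8a. The log2 difference of the Cox8b to Cox8a ratio ranged from -0.034 to 0.31 without 1 library each, and that of Cox7a1 to Cox7a2 from -0.092 to 0.030. The mitochondrial share did not overlap between the groups, so the fit with it as a covariate cannot tell it apart from genotype. The cause of these turns was not tested. With 3 libraries a group, no ratio can reach an exact p under 0.1, and members with few reads (Cox6b2, Cox7b2, Sdhaf1) are limited by depth.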
